A study of Mus musculus with 8 samples.

Results

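The NRF2 targets and metallothioneins described here are 10 genes of the response to oxidative, electrophile and metal stress, chosen by name: *Nfe2l2*, *Gclc*, *Gclm*, *Srxn1*, *Txnrd1*, *Nqo1*, *Hmox1*, *Gsto1*, *Mt1* and *Mt2*. All 10 were found among the 50600 gene names of the table, and all 10 were among the 10222 genes whose mean value over the libraries was high enough to be tested. They were followed across the treatments to see whether a stress response of this kind accompanied the compounds.

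RNA-seq was performed on mouse embryonic stem cells that express JUN upon addition of doxycycline. The labels give them as OG2 cells at passage P12 with the genotype c-Jun_TetOn_mESC, on a mixed background of 129SVJ (1/2), C57B6 (3/8) and CBA (1/8). All 8 libraries came from cells kept without feeders in 2i medium with serum and LIF and induced with doxycycline at 2 µg/ml, so the DMSO group is a solvent control within JUN-induced cells and not an uninduced one. The cells also received DMSO, PFI-3, BI-9564 or both compounds together (P+B), with 2 libraries in each of the 4 groups. The labels give 6 h for doxycycline and compound alike, whereas the legend of the study describes a longer induction of JUN than exposure to compound, so the time of induction is uncertain. PFI-3 occupies the bromodomains of the BAF ATPases BRG1 and BRM, and BI-9564 those of BRD9 and BRD7, the acetyl-lysine reading modules through which these proteins bind acetylated histones. The question of the study was whether chromatin remodelling by BAF at JUN target sites needs such reading. The labels name no compound dose, and they do not say whether the 2 libraries of a group came from separate cultures, so the p-values measure the spread between these libraries, which may be technical. Whether the engineered cells were 1 clone is not stated there either.

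NRF2, the protein of *Nfe2l2*, is a transcription factor that KEAP1 holds in the cytoplasm and delivers to a CUL3 ubiquitin ligase for degradation. Electrophiles and oxidants modify cysteines of KEAP1, NRF2 then accumulates, pairs with a small MAF protein and binds antioxidant response elements, while BACH1 occupies the same elements as a repressor. Its targets make glutathione, reduce thioredoxin and peroxiredoxins, and detoxify quinones and heme. Metallothioneins are small cysteine-rich proteins that bind zinc, copper and cadmium, and the metal-responsive factor MTF1 activates their genes at metal response elements. Antioxidant response elements resemble the AP-1 sites that JUN binds, so both kinds of sequence were searched for.

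The values were TPM made whole numbers, which scales each gene by its length and each library to a common total, and the libraries summed to 991574 to 991897. Read numbers cannot be recovered from TPM, so the depth is unknown and no counting error can be given. The 6 stem cell markers summed to 1379 to 1988 per library. The 6 fibroblast markers summed to 0 to 5, with *Col1a2*, *Dcn* and *Lum* at 0 in all libraries, and the 4 endoderm markers to 2 to 6. Libraries that share a replicate number deviated in common. Between the numbers 2 of the 6 stem cell markers were changed, against 0.763% of all tested genes changed lower. These were *Nanog* at -0.81 and *Zfp42* at -0.69 in log2 value (replicate 2 minus replicate 1, limma, adjusted p = 0.00429 and 0.00528). All 6 had a mean difference below 0, and 5 were lower in replicate 2 of all 4 groups, against 12.8% of all tested genes.

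Promoter sequences were available for 8 of the 10 genes from RefSeq on GRCm38.p6, as windows from 250 bases before to 50 bases after a transcription start. *Mt1* and *Mt2* are shown because they lie 5513 bases apart on chromosome 8 and had similar patterns over the libraries, and *Srxn1* because its level differed most with P+B. Capitals in the metallothionein sequences mark the core of the metal response element (TGCACNC or TGCGCNC, searched on both strands), and capitals in *Srxn1* mark the AP-1 site (TGANTCA, both strands). Each sequence is the 250 bases upstream of the start on the plus strand, chr8:94178839-94179088 for *Mt1*, chr8:94172368-94172617 for *Mt2* and chr2:152105274-152105523 for *Srxn1*.
Mt1: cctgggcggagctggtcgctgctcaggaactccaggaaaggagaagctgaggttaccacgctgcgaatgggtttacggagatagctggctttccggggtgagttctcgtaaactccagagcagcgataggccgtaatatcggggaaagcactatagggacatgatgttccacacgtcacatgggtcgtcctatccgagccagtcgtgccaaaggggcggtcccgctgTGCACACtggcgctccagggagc
Mt2: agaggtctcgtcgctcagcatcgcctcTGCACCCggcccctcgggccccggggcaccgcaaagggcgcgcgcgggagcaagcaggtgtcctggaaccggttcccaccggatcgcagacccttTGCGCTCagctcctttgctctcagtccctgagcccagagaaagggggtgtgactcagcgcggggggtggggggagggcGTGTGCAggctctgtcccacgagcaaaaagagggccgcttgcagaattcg
Srxn1: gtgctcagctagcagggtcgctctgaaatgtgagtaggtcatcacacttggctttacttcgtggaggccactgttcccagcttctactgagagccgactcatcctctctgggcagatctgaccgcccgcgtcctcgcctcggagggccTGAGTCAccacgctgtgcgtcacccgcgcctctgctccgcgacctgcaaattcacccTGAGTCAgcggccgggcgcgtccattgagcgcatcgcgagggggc

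Over the full windows, the metal response element core was found 3 times for *Mt1* and 4 times for *Mt2*. Of these, 1 and 3 are upstream of the RefSeq start and in capitals above. In the GENCODE annotation *Mt2* begins later, at position 94172664, so this split depends on the start used. For *Mt1* the matches not in capitals begin at bases 3 and 21 from the RefSeq start used. A start further downstream would place them in the upstream part. The split therefore does not rank *Mt1* and *Mt2* by upstream elements. Sequence outside the windows was not searched. Of all 32851 promoter windows, 25.7% held at least 1 such core, 1.97% at least 3 and 0.517% at least 4. *Gclm* also held 3, and *Srxn1* held 1. The AP-1 site was found 2 times for *Srxn1*, starting 102 and 45 bases before the start, and 1 time for *Mt2*. At least 1 AP-1 site was present in 7.81% of windows and at least 2 in 0.46%. The core of the antioxidant response element (TGACNNNGC, both strands) was found 1 time each for *Nfe2l2*, *Srxn1*, *Gclm* and *Mt2* and in 1 of 3 windows of *Txnrd1*, against 12.4% of all windows. In *Mt2* this match overlapped the AP-1 site. None of these 3 motifs was found in the windows of *Nqo1* and *Gsto1*. A match of letters is a description of the sequence and does not show binding.

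The levels of the 10 genes were first compared with each other, since TPM allows this per length. *Mt2* (1420 to 2223) and *Mt1* (689 to 1330) were the highest, and together they made up 0.213% to 0.358% of all TPM in a library. *Txnrd1* ranged from 172 to 220, *Gclm* from 112 to 151, and *Hmox1* from 69 to 138. *Nqo1* (69 to 85), *Gsto1* (35 to 131) and *Nfe2l2* (53 to 73) overlapped in their ranges, as did the lowest members, *Srxn1* (23 to 59) and *Gclc* (24 to 43). The 10 genes were thus all expressed in the solvent control, with *Gclc* at 24 and 27 as the lowest of them there.

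**Figure D1:**
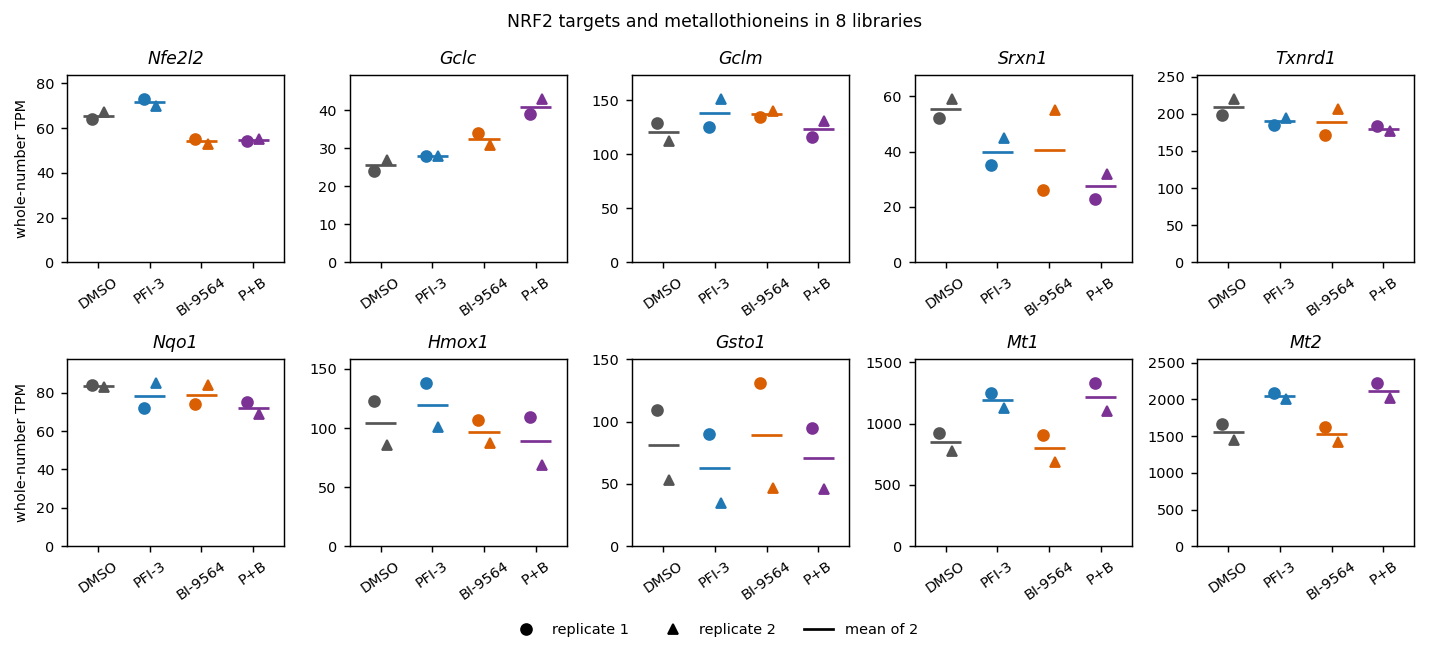
Level of each gene in whole-number TPM (y axis, from 0) by treatment (x axis), with replicate 1 as circles, replicate 2 as triangles and the mean of both as a line. *Mt1* and *Mt2* are high in the 4 libraries with PFI-3, *Nfe2l2* is low in the 4 libraries with BI-9564, and *Gsto1* is split by replicate number in every group.

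The regulator was examined first. *Nfe2l2* (chr2:75675513-75704641, minus strand, GRCm38) had 64 and 67 TPM under DMSO, 73 and 70 under PFI-3, 55 and 53 under BI-9564, and 54 and 55 under P+B, in the order replicate 1 and replicate 2. The BI-9564 and P+B libraries lay below all DMSO and PFI-3 libraries, and replicates of a group differed by no more than 3 TPM. Against DMSO, the difference in log2(value + 1) was 0.12 ± 0.099 (SE, n = 2 and 2) for PFI-3, -0.27 ± 0.099 for BI-9564 and -0.26 ± 0.099 for P+B, and none of these passed the test (limma, Benjamini-Hochberg adjusted p = 0.891, 0.269 and 0.171). NRF2 activity is set mainly by protein stability, so the transcript is only an indirect measure of it. In these bulk RNA values, as in all that follow, fewer cells of a kind and less RNA per cell cannot be told apart.

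Glutathione synthesis starts with glutamate-cysteine ligase, whose catalytic subunit is made from *Gclc* and its modifier subunit from *Gclm*. *Gclc* (chr9:77754535-77794485, plus strand) had 24 and 27 TPM under DMSO, 28 and 28 under PFI-3, 34 and 31 under BI-9564, and 39 and 43 under P+B. The groups did not overlap, in the order DMSO, PFI-3, BI-9564 and P+B. *Gclc* rose with P+B by 0.67 ± 0.13 in log2 value, a fold change of 1.59 (95% interval of the log2 difference 0.36 to 0.97, adjusted p = 0.0306). A gene was counted as changed when its adjusted p-value was under 0.05 and its fold change at least 1.5, and *Gclc* was the only 1 of the 10 genes that did so, against 4% of all tested genes (1.28% higher and 2.72% lower). The split of those calls moved with the scaling, from 131 higher and 278 lower to 81 and 305 by quantile normalization and 86 and 401 by median centring, where *Gclc* was at 0.57 and under the fold of 1.5. The call is at the edge of the thresholds: with any 1 of the 8 libraries left out, the adjusted p-value was 0.0564 to 0.17 while the difference was 0.58 to 0.75. The single compounds gave 0.13 ± 0.13 (PFI-3, adjusted p = 0.929) and 0.34 ± 0.13 (BI-9564, adjusted p = 0.295).

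*Gclm* (chr3:122245557-122270732, plus strand) did not follow *Gclc*. It had 129 and 112 TPM under DMSO, 125 and 151 under PFI-3, 134 and 140 under BI-9564, and 116 and 131 under P+B, and its P+B and DMSO libraries overlapped. The difference with P+B was 0.04 ± 0.12 (adjusted p = 0.893, 95% interval -0.25 to 0.32). Over the 8 libraries the Pearson correlation of the 2 subunits was -0.07, given as a description only. *Gclm* overlaps the annotated genes *Gm17494* and *Gm6061* and shares 0.776% of its 50-base windows with transcripts of other genes, so a small part of its reads may be assigned differently.

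In the thioredoxin arm, sulfiredoxin, the product of *Srxn1* (chr2:152105516-152111376, plus strand), reactivates overoxidized peroxiredoxins. *Srxn1* had 52 and 59 TPM under DMSO, 35 and 45 under PFI-3, 26 and 55 under BI-9564, and 23 and 32 under P+B. The P+B and PFI-3 libraries were below both DMSO libraries, whereas the BI-9564 libraries were split, with replicate 2 inside the DMSO range. With P+B the difference was -1.003 ± 0.32, a fold of 0.499, and did not pass without a block (adjusted p = 0.113). When the replicate number was added to the model as a block, the SE was 0.20 and *Srxn1* fell (adjusted p = 0.0189), so that 2 of the 10 genes, *Gclc* and *Srxn1*, were changed in that fit against 7.02% of all tested genes. The single compounds gave -0.47 ± 0.32 (PFI-3, adjusted p = 0.856) and -0.54 ± 0.32 (BI-9564, adjusted p = 0.47).

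*Txnrd1* (chr10:82833951-82897712, plus strand) encodes the cytosolic thioredoxin reductase. It had 198 and 220 TPM under DMSO, 185 and 195 under PFI-3, 172 and 207 under BI-9564, and 183 and 177 under P+B. Both P+B libraries and both PFI-3 libraries were under the DMSO libraries, by a small margin. The gene overlaps the annotated genes *Gm38560*, *Gm47073* and *Eid3*. The difference with P+B was -0.21 ± 0.11, which did not pass (adjusted p = 0.286). Across the 8 libraries *Srxn1* and *Txnrd1* had a Pearson correlation of 0.892, the highest among the NRF2 targets here, and these points share library and replicate number.

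*Nqo1* (chr8:107388225-107403206, minus strand), which encodes a quinone reductase and is a widely used marker of NRF2 activity, had 84 and 83 TPM under DMSO, 72 and 85 under PFI-3, 74 and 84 under BI-9564, and 75 and 69 under P+B. Only the P+B libraries were separate from DMSO, and they were lower. The difference was -0.21 ± 0.12 with P+B (adjusted p = 0.337), -0.09 ± 0.12 for PFI-3 and -0.08 ± 0.12 for BI-9564. The upper ends of the 95% intervals were 0.06, 0.18 and 0.19 in log2 value, so a rise of *Nqo1* by the fold of 1.5 used for calls (0.58 in log2 value) lay outside all of them.

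*Hmox1* (chr8:75093621-75100589, plus strand) encodes heme oxygenase and is a target that BACH1 represses. It had 123 and 86 TPM under DMSO, 138 and 101 under PFI-3, 107 and 87 under BI-9564, and 109 and 69 under P+B. Every group overlapped with DMSO, and replicate 2 was the lower library in all 4 groups. Within each replicate number, *Hmox1* was higher with PFI-3 and lower with P+B than with DMSO. The differences from DMSO were 0.20 ± 0.26 for PFI-3, -0.09 ± 0.26 for BI-9564 and -0.24 ± 0.26 for P+B (adjusted p = 0.951, 0.904 and 0.625). With the replicate number as a block the SE of *Hmox1* was 0.097 (limma adjusted p = 0.511, 0.634 and 0.147). *Gsto1* (chr19:47854970-47864790, plus strand), a glutathione transferase gene of the omega class that overlaps *Cfap43* on the other strand, had 109 and 53 TPM under DMSO, 90 and 35 under PFI-3, 131 and 47 under BI-9564, and 95 and 46 under P+B. Its replicates differed by far more than its groups did, and the 95% interval for P+B ran from -1.60 to 1.20 around a difference of -0.20, which includes the difference between the replicates. With the replicate number as a block the SE was 0.13 and the interval -0.49 to 0.10 (adjusted p = 0.342), so that a rise or a fall by the fold of 1.5 lay outside it.

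The metallothioneins were high with PFI-3 and with P+B. *Mt1* (chr8:94179082-94180327, plus strand) had 925 and 777 TPM under DMSO, 1253 and 1123 under PFI-3, 906 and 689 under BI-9564, and 1330 and 1103 under P+B. *Mt2* (chr8:94172664-94173568, plus strand) had 1666 and 1451 TPM under DMSO, 2089 and 2011 under PFI-3, 1628 and 1420 under BI-9564, and 2223 and 2013 under P+B. For both genes, each of the 4 libraries that received PFI-3, alone or with BI-9564, was above each of the 4 that did not. The ratio of *Mt2* to *Mt1* stayed between 1.67 and 2.06. The longest annotated protein-coding transcripts of *Mt1* and *Mt2* (1085 and 511 bases) are 74.0% identical over 439 aligned bases and share no 50-base window. Shorter transcripts were not aligned. *Mt2* overlaps the antisense gene *Gm45774*, and the strand setting of the counting is not given in the sources used here.

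With P+B against DMSO, *Mt2* differed by 0.44 ± 0.094 (adjusted p = 0.0393) and *Mt1* by 0.51 ± 0.15 (adjusted p = 0.09). The folds were 1.36 and 1.43, so neither gene reached the fold of 1.5. With any 1 library left out the adjusted p-value of *Mt2* was 0.052 to 0.184. When the replicate number was a block, the SE for P+B against DMSO was 0.046 for *Mt2* and 0.058 for *Mt1*. The limma adjusted p-values were then 0.00163 and 0.00237, and the folds were unchanged. Libraries were left out only in the fit without the block. With PFI-3 alone and no block, *Mt1* differed by 0.48 ± 0.15 and *Mt2* by 0.40 ± 0.094 (adjusted p = 0.594 and 0.506). With BI-9564 alone they differed by -0.10 ± 0.15 and -0.03 ± 0.094 (adjusted p = 0.796 and 0.908). The large adjusted p-values with PFI-3 stand beside unadjusted limma p-values of 0.0113 and 0.00266, in a comparison where limma called 0 of 10222 genes and 694 had an unadjusted p-value under 0.05. Of the 10 genes, *Mt1* and *Mt2* were the 2 with an unadjusted p-value under 0.05 for PFI-3 (6.79% of all tested genes), and *Gclc* and *Nfe2l2* were the 2 for BI-9564 (14.9% of all). With the block these counts were 4 for PFI-3 (*Srxn1* and *Gsto1* in addition, 11.2% of all) and 3 for BI-9564 (*Srxn1* in addition, 21.3% of all). In that fit the SE for PFI-3 was 0.058 for *Mt1* and 0.046 for *Mt2*. Their unadjusted limma p-values were 4.69e-05 and 3.44e-05, and the adjusted p-values of 0.12 and 0.117 did not pass.

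**Figure D2:**
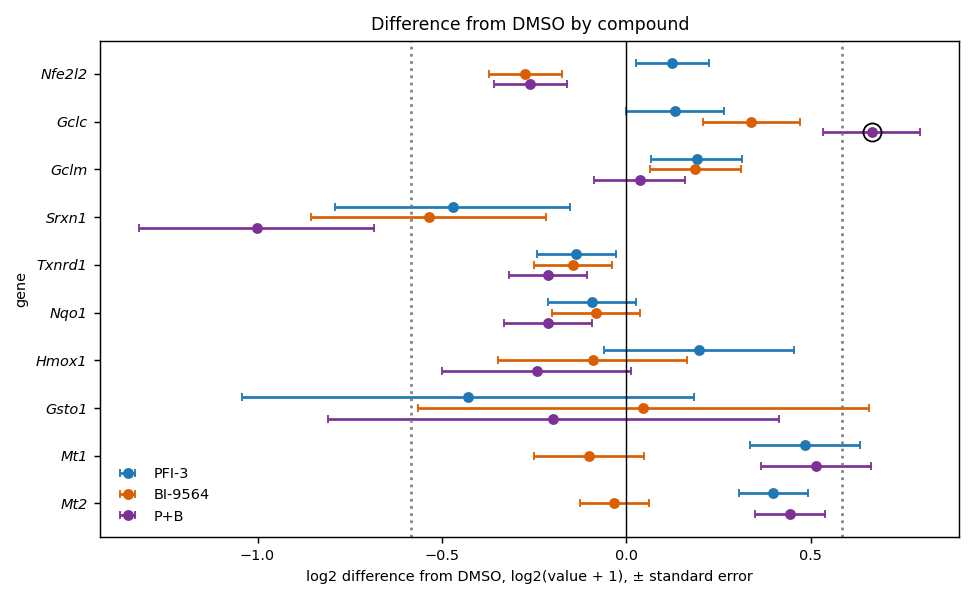
Difference from DMSO in log2(value + 1) (x axis) for each gene (y axis) for PFI-3, BI-9564 and P+B, as points with the standard error from limma as bars. Dotted lines mark a fold of 1.5 in each direction, and the circle marks *Gclc* with P+B at 0.67, the only changed gene, while *Mt1* and *Mt2* sit between 0.40 and 0.51 with PFI-3 and P+B and near 0 with BI-9564.

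The counts over all 10 genes were then set against all tested genes. Libraries with P+B were entirely above DMSO for 3 genes (*Gclc*, *Mt1* and *Mt2*) and entirely below for 4 (*Nqo1*, *Srxn1*, *Txnrd1* and *Nfe2l2*), while 28.6% and 18.9% of all tested genes did so. The median difference of the 10 genes with P+B was -0.21 against 0.06 for all tested genes. With PFI-3, 4 genes were entirely above (*Gclc*, *Mt1*, *Mt2* and *Nfe2l2*) and 2 below (*Srxn1* and *Txnrd1*), against 16.5% and 12.8%, with a median of 0.13 against 0.02. With BI-9564, 2 genes were entirely above (*Gclm* and *Gclc*) and 1 below (*Nfe2l2*), against 22.9% and 18.3%, with a median of -0.09 against 0.02. PFI-3 alone changed 0 of the 10 genes and 0% of all tested genes, and BI-9564 alone changed 0 of the 10 and 0.108% of all. In the fit with the block these counts for the 10 genes were also 0, against 0% and 1.53% of all. An exact permutation test of 1 gene (two-sided, 2 libraries against 2) has a smallest possible p of 0.333, so these calls rest on the spread that limma shares among genes and groups.

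The treatments were also compared directly. Between P+B and PFI-3 none of the 10 genes was changed (1.31% of all tested genes were, and with the block 0 of the 10 against 3.43%), with *Gclc* at 0.53 ± 0.13 (adjusted p = 0.104) and *Nfe2l2* at -0.39 ± 0.099 (adjusted p = 0.106). In the same comparison *Mt1* differed by 0.03 (95% interval -0.31 to 0.37) and *Mt2* by 0.05 (-0.17 to 0.26), so a further difference of either metallothionein by a fold of 1.5 (0.58 in log2 value) with BI-9564 added lay outside both intervals. Between P+B and BI-9564, *Mt1* was at 0.62 ± 0.15 and *Mt2* at 0.48 ± 0.094 (adjusted p = 0.27 and 0.153, with 0.196% of all tested genes changed). With the block *Mt1* was higher with P+B than with BI-9564 (SE 0.058, adjusted p = 0.00635), as 1 of the 10 genes and 0.802% of all.

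Between BI-9564 and PFI-3, *Mt1* differed by -0.59 ± 0.15, *Mt2* by -0.43 ± 0.094 and *Nfe2l2* by -0.40 ± 0.099 (adjusted p = 0.157, 0.12 and 0.157, with 0.108% of all tested genes changed). With the block *Mt1* was lower with BI-9564 (adjusted p = 0.0119), again as 1 of the 10 genes, against 1.48% of all. *Mt2* had an adjusted p-value of 0.012 with a fold under 1.5. Tested against the sum of the single compounds, P+B departed by 0.13 for *Mt1*, 0.08 for *Mt2*, 0.19 for *Gclc* and -0.11 for *Nfe2l2*, and limma called 0 of the 10 genes and 0% of all, with or without the block. At an unadjusted p-value under 0.05 there were 0 of the 10 and 333 of all (3.26%) without the block, and 1 of the 10 (*Hmox1*) and 588 of all (5.75%) with it.

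Since *Mt1* and *Mt2* separated by PFI-3 and *Gclc* and *Nfe2l2* by BI-9564, the 4 libraries with a compound were set beside the 4 without it. This grouping was chosen because these genes separated by it, so their values are given as a description with no p-value. With PFI-3, *Mt2* had 2011 to 2223 TPM against 1420 to 1666 without it, a mean difference of 0.44 in log2 value (n = 4 and 4, fold 1.35). *Mt1* had 1103 to 1330 against 689 to 925, a difference of 0.55 (fold 1.46). Among all tested genes, 1.94% had all 4 libraries with PFI-3 above the other 4.

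With BI-9564, *Gclc* had 31 to 43 TPM against 24 to 28 without it, a difference of 0.44 (fold 1.35). *Nfe2l2* had 53 to 55 against 64 to 73, a difference of -0.33 (fold 0.796). Such complete separation by BI-9564 was seen upward in 7.78% and downward in 6.04% of all tested genes. *Gclc* also averaged 0.23 higher in log2 value with PFI-3, with overlapping ranges of 28 to 43 TPM against 24 to 34. None of the 10 genes reached a fold of 1.5 in this grouping, so 0 were counted as changed with either compound (0.323% of all for PFI-3 and 3.19% for BI-9564, and 1.05% and 4.95% with the block). The libraries with P+B are among those with the compound for both compounds, and the averages assume that each compound acts alike in the presence of the other.

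The replicate series gave the clearest difference of all for *Gsto1*. The difference of replicate 2 minus replicate 1 was -1.03 to -1.46 in log2 value in the 4 groups, and *Gsto1* fell by 1.21 ± 0.090 on average (SE, n = 4 pairs, fold 0.431, limma adjusted p = 0.00144). *Gsto1* was the only 1 of the 10 genes changed between the replicate series, against 1.32% of all tested genes (0.558% higher and 0.763% lower in replicate 2). *Hmox1* (-0.48 ± 0.069, adjusted p = 0.013) and *Mt1* (-0.27 ± 0.041, adjusted p = 0.0171) passed the p-value threshold with folds under 1.5, although not with any 1 library left out (adjusted p = 0.0556 to 0.101 and 0.0634 to 0.118), and *Mt2* was at -0.15 ± 0.032 (adjusted p = 0.0526). *Srxn1* went the other way, with 0.51 ± 0.14 (adjusted p = 0.0945), and was higher in replicate 2 in all 4 groups.

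Replicate 2 was lower in all 4 groups for *Hmox1*, *Gsto1*, *Mt1* and *Mt2*, that is 4 of the 10 genes against 12.8% of all tested genes, and higher in all 4 for *Srxn1*, against 11.1%. *Nfe2l2*, *Gclc*, *Gclm*, *Nqo1* and *Txnrd1* differed between the series by -0.01 to 0.11 on average, with no common sign over the groups. *Jun*, the induced gene, had 1569 to 2071 TPM in the replicate 1 libraries and 2159 to 3011 in the replicate 2 libraries, a mean difference of 0.51 (adjusted p = 0.000382). The part of *Jun* or of the stem cell markers in the difference of the series was not tested. What a replicate number stands for, a culture, a day or a batch of libraries, is not given in the labels.

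**Figure D3:**
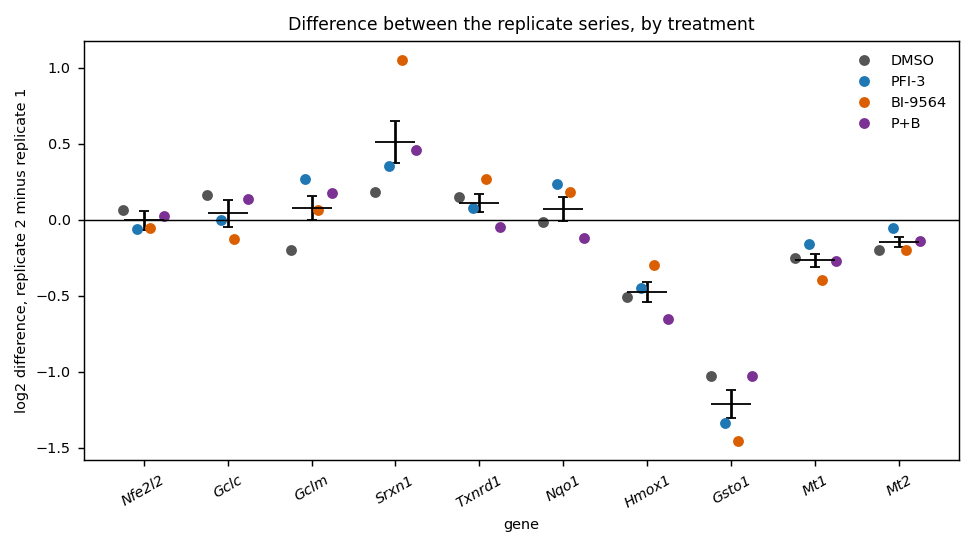
Difference of replicate 2 minus replicate 1 in log2(value + 1) (y axis) for each gene (x axis), with 1 point for each treatment and the mean ± standard error from limma as bars. *Gsto1* lies between -1.03 and -1.46 in all 4 groups, *Hmox1* and the metallothioneins lie below 0 in all 4, and *Srxn1* lies above 0 in all 4.

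The genes whose pattern over the 8 libraries was most like that of each member were found among 6520 genes with a mean of at least 20, by Pearson's r of log2(value + 1), which is a description of 8 points that share groups and replicate numbers. For *Mt1* the highest were *Esrrb* (r = 0.992) and *Mt2* (r = 0.986), and for *Mt2* they were *Mt1* and *Esrrb* (r = 0.981). *Esrrb*, which encodes a nuclear receptor of the pluripotency network, had 86 and 58 TPM under DMSO, 128 and 110 under PFI-3, 76 and 54 under BI-9564, and 141 and 100 under P+B. As with the metallothioneins, the PFI-3 and P+B libraries were above the DMSO and BI-9564 libraries. *Esrrb* differed by 0.74 ± 0.24 with P+B (adjusted p = 0.12, and 0.00486 with the block, where it was counted as changed). *Jun* had 1970 and 2877 TPM under DMSO, 1570 and 2227 under PFI-3, 2071 and 3011 under BI-9564, and 1569 and 2159 under P+B, so within each replicate number it was lower in the libraries with PFI-3. The 6 stem cell markers, *Esrrb* among them, summed to 1796 and 1629 TPM in the DMSO libraries, 1988 and 1803 for PFI-3, 1619 and 1379 for BI-9564 and 1743 and 1500 for P+B. The part of *Jun* or of the stem cell markers in the metallothionein levels was not tested.

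**Figure D4:**
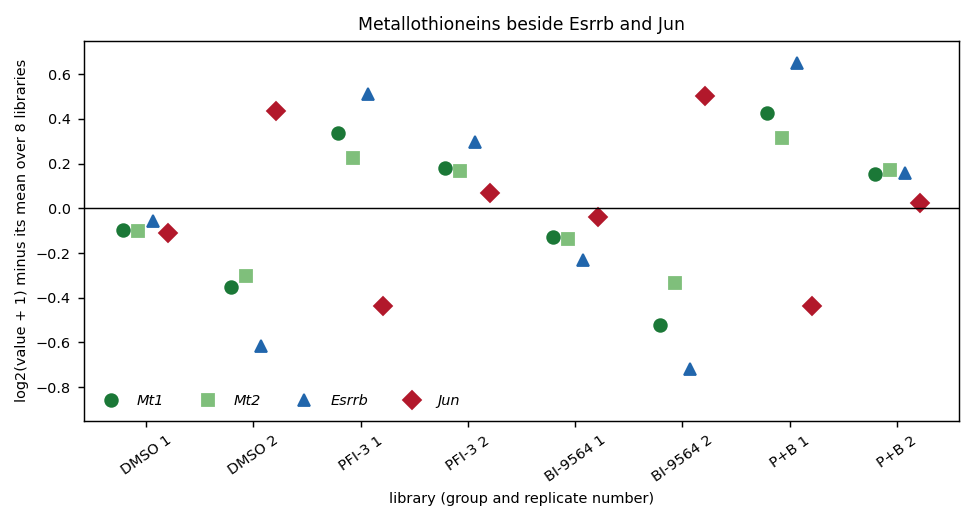
Level of *Mt1*, *Mt2*, *Esrrb* and *Jun* as log2(value + 1) minus the mean of the gene over the 8 libraries (y axis) in each library (x axis). *Mt1*, *Mt2* and *Esrrb* lie above 0 in the 4 libraries with PFI-3 and below 0 in the 4 without it, and *Jun* is higher in replicate 2 of every group.

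Of the other members, *Gsto1* was closest to *Ctsd* (r = 0.970), which encodes a lysosomal protease, and *Rfk* (r = 0.963), and *Hmox1* to *Psme1* (r = 0.976) and *Ctsb* (r = 0.972). *Ctsd* differed between the replicate series by -0.41 (adjusted p = 0.00458). *Srxn1* was closest to *Srsf3* (r = 0.985) and *Mybbp1a* (r = 0.964), *Txnrd1* to *Phip* (r = 0.934) and *Grwd1* (r = 0.927), and *Nqo1* to *Surf2* (r = 0.948) and *Nol7* (r = 0.925). *Gclc* was closest to *Sac3d1* (r = 0.974) and *Chpf* (r = 0.973), *Gclm* to *Pdcd2l* (r = 0.904) and *Zbtb17* (r = 0.882), and *Nfe2l2* to *Ubtf* (r = 0.990) and *Rpl3-ps1* (r = 0.985). *Rpl3-ps1* is named as a pseudogene, and its reads may belong to *Rpl3*. Thus none of the NRF2 targets had another of the 10 genes among its 2 nearest.

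The other genes of the pathway were taken from lists. Among the regulators and partners of NRF2, 9 of 11 were tested and 0 were changed with P+B, PFI-3 or BI-9564 (4%, 0% and 0.108% of all), so a count of 0 among 9 genes is near that background. *Keap1* had 29 and 27 TPM under DMSO and 30 and 41 under P+B, a difference of 0.32 ± 0.18 (adjusted p = 0.33). *Bach1* had 60 and 67 TPM under DMSO, 50 and 51 under PFI-3, 57 and 62 under BI-9564, and 45 and 47 under P+B, so its P+B libraries were the lowest. Its difference with P+B was -0.45 ± 0.11 (adjusted p = 0.0572). *Mafk*, a small MAF partner, was at -0.53 ± 0.19 with P+B (adjusted p = 0.154).

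Of 25 further NRF2 targets, 22 were tested and 0 were changed with P+B, PFI-3 or BI-9564 (4%, 0% and 0.108% of all). With P+B 10 were above 0 and 12 below, with a median of -0.10 against 0.06 for all tested genes. The extremes with P+B were *Ephx1*, an epoxide hydrolase, at 0.56 ± 0.67 (adjusted p = 0.672), and *Gss*, glutathione synthetase, at -0.50 ± 0.19 (adjusted p = 0.166). *Ephx1* had 11 and 3 TPM under DMSO, 12 and 3 under PFI-3, 9 and 5 under BI-9564, and 12 and 7 under P+B. Like *Gsto1*, it fell in replicate 2, by 1.18 in log2 value (adjusted p = 0.0409). *Slc7a11*, the cystine transporter gene, was listed at 0 in all 8 libraries and was not tested.

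In the list of metal handling, 7 of 9 genes were tested and 0 were changed with P+B, PFI-3 or BI-9564 (4%, 0% and 0.108% of all), with a median of -0.03 for P+B. *Mtf1*, which encodes the factor that activates metallothionein genes, had 10 to 15 TPM over the libraries. *Slc30a1*, a zinc exporter gene that MTF1 also activates, had 6 and 9 TPM under DMSO, 8 and 9 under PFI-3, 10 and 12 under BI-9564, and 10 and 13 under P+B. Unlike *Mt1* and *Mt2*, its higher libraries were those with BI-9564, and its difference of 0.57 ± 0.26 with P+B did not pass (adjusted p = 0.245). *Mt3* and *Mt4*, the other metallothionein genes, were at 0 to 7 TPM and were not tested.

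Other stress programs were set beside the 10 genes. Of the heat shock genes 7 of 8 were tested, 0 were changed with P+B, PFI-3 or BI-9564 (4%, 0% and 0.108% of all) and the median with P+B was -0.30. The P+B libraries were entirely below DMSO for 5 of the 7 (18.9% of all) and entirely above for 1 (28.6% of all). The chaperone genes *Hspa8* and *Hsph1* passed the p-value threshold with folds under 1.5, at -0.36 ± 0.077 and -0.40 ± 0.090 (adjusted p = 0.041 and 0.0456), and *Hspa1b* was at 0.69 ± 0.31 (adjusted p = 0.237). Among 8 genes of the ATF4 response to amino acid and translation stress, 1 rose and 2 fell with P+B (1.28% and 2.72% of all tested genes). *Sesn2* rose by 0.87 ± 0.17 (adjusted p = 0.0267), from 62 and 43 TPM under DMSO to 98 and 93. *Trib3* fell by 1.05 ± 0.17 (adjusted p = 0.0124), from 44 and 39 TPM to 21 and 18, and *Atf3* fell by 1.34 ± 0.18 (adjusted p = 0.0066), from 29 and 32 TPM to 10 and 13. Outside the 10 genes, the 2 listed genes highest with P+B were *Ddit4* at 1.12 ± 0.32 (adjusted p = 0.0887, and 0.0245 with the block, where it was counted as changed) and *Ddit3* at 0.93 ± 0.39 (adjusted p = 0.201). The 2 lowest were *Atf3* and *Chac1*, the latter at -1.13 ± 0.34 (adjusted p = 0.0956).

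Among 8 genes of the unfolded protein response 1 fell with P+B (2.72% of all tested genes), *Xbp1*, by 0.87 ± 0.20 (adjusted p = 0.0489), from 43 and 43 TPM to 23 and 23. Against DMSO, neither single compound changed a gene of the ATF4 and unfolded protein lists (0% of all for PFI-3, 0.108% for BI-9564). In the fit with the block (0% and 1.53% of all), *Sesn2* was higher and *Trib3* lower under BI-9564 (adjusted p = 0.035 and 0.0407). PFI-3 libraries were entirely above DMSO for 5 of the 8 unfolded protein genes and below for 0 (16.5% and 12.8% of all). For BI-9564 these counts were 0 above and 6 below (22.9% and 18.3% of all). The medians of this list were 0.16 for PFI-3 and -0.25 for BI-9564. In the ATF4 list, PFI-3 libraries were entirely above DMSO for 5 of 8 genes and below for 1. BI-9564 libraries were above for 2 and below for 4. Compared directly, *Atf4* (-0.76) and *Trib3* (-1.34) were lower with BI-9564 than with PFI-3 (limma adjusted p = 0.0207 and 0.0385, 0.108% of all changed). With P+B, *Chac1* (-1.95) and *Trib3* (-1.50) were lower than with PFI-3 (limma adjusted p = 0.0348 and 0.0109, 1.31% of all). *Atf3* (-1.38) was lower than with BI-9564 (limma adjusted p = 0.0361, 0.196% of all). The calls of these listed genes were recomputed with the block only, and *Sesn2*, *Trib3*, *Atf3* and *Xbp1* were changed with P+B against DMSO in that fit too. *Sesn2* is also a target of p53 and *Atf3* of JUN and other AP-1 proteins, so membership in a list does not give a gene's regulator here.

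**Figure D5:**
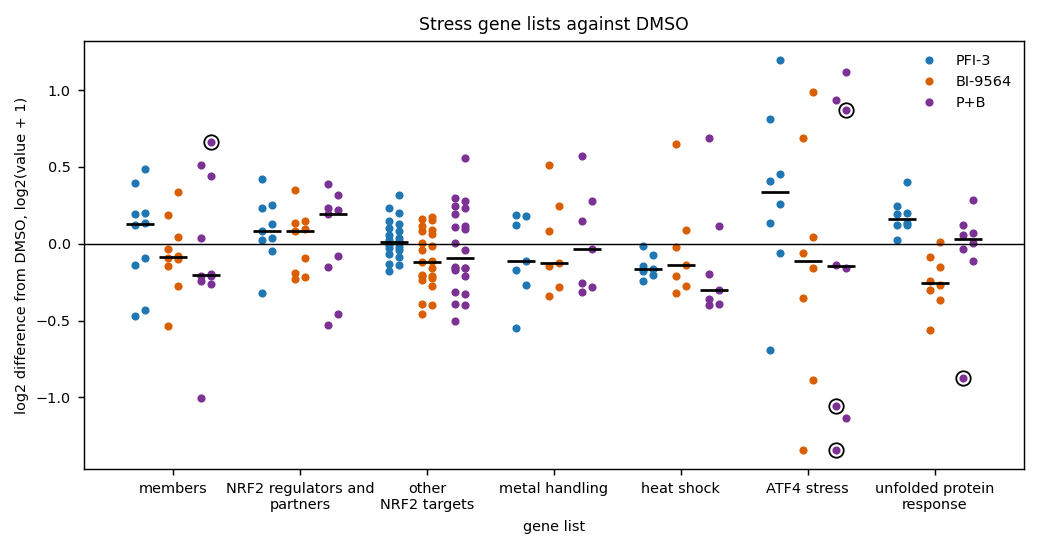
Difference from DMSO in log2(value + 1) (y axis) of each tested gene of 7 lists (x axis) with PFI-3, BI-9564 and P+B, with the list median as a line and changed genes circled. The circled genes, all with P+B, are *Gclc* among the 10 genes, *Sesn2*, *Trib3* and *Atf3* of the ATF4 list and *Xbp1* of the unfolded protein response.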

How the data were processed

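RNA-seq libraries were made with a VAHTS mRNA-seq kit from 8 samples, 2 for each of DMSO, PFI-3, BI-9564 and P+B, grouped by their labels. The submitters' processing notes name bcl2fastq, Bowtie2 2.2.5, RSEM 1.3.0 and build mm10; the annotation and strand setting are not given in the sources used here, and the paper's legend gives a longer JUN induction than the 6 h in the labels. The authors deposited 1 table of 50600 gene names whose values are TPM made whole numbers (a score without depth), so DESeq2, which the authors name, was not run.

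The 10 genes and all lists were chosen with earlier results of these data known. Values were analysed as log2(value + 1), which understates changes of low genes, with limma 3.58.1 in R 4.3.3 (trend, 4 groups fitted together, 4 residual degrees of freedom before moderation), for genes with a mean of at least 5. P-values were Benjamini-Hochberg adjusted over the 10222 tested genes in each of 8 comparisons, and changed means a fold of at least 1.5 with an adjusted p-value under 0.05. Intervals are 95% limma intervals. The groups share replicate numbers in the labels, and the differences between the replicates, taken over genes, correlated in each pairing of the groups (r between 0.143 and 0.236). The libraries were therefore regarded as paired by number. A model that includes this number as a block is quoted where a call depends on it and for some other genes. The replicate series were compared in that model.

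Named are the 10 genes, changed genes of the lists, the listed genes that were the 2 highest and the 2 lowest in difference for P+B, and the 2 genes most like each member. Other listed genes (*Keap1*, *Bach1*, *Mafk*, *Gss*, *Slc7a11*, *Mtf1*, *Slc30a1*, *Mt3*, *Mt4*, *Hspa1b*, *Hspa8*, *Hsph1*), and *Jun* and the absent fibroblast markers, were named for their role after their values were seen. Positions are from GENCODE M21 on GRCm38 (the build mm10), and promoters from RefSeq on GRCm38.p6.

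Alternatives tried were a replicate block, another pseudocount (0.5 or 5), other filters or none, quantile normalization, median centring, limma without a trend, only the groups compared, no fold threshold, and each library left out. The comparisons of 4 libraries with 4 were added after seeing the data and are given as a description. The fit was tested on simulated data of 10222 genes for P+B against DMSO. It called 97 of 100 genes altered by 2 in log2 value, 70 of 100 altered by 1, and 5 of 10022 left unaltered. The simulated noise was independent between libraries and had no replicate effect, so these rates need not hold for the real libraries.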

Additional observations from a re-analysis of the deposited data

How the results depend on the processing

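Over 56 pairs of a gene and a comparison and the alternatives tried, 984 of 1040 recomputed values kept their direction and their side of the thresholds. These pairs were all 10 genes against DMSO and between the replicate series. In the other comparisons they were only *Gclc*, *Mt1*, *Mt2* and *Nfe2l2*, so this share and the sign changes below leave out the other genes there. The count of 1 changed gene of the 10 with P+B against DMSO stood beside 409 of 10222 tested genes. It became 2 with the replicate block (*Gclc* and *Srxn1*, 718 of all) and 2 without a fold threshold (*Gclc* and *Mt2*, 500 of all). Without a filter on low values it was 0 (*Gclc* limma adjusted p = 0.0549, 201 of 17525 tested genes changed). By median centring it was also 0 (*Gclc* at 0.57, 487 of 10222 changed). A fit of only the 2 groups compared called 0 of the 10 and 0 of 10222 genes (*Gclc* limma adjusted p = 0.153). That fit had fewer libraries to estimate the spread, so its 0 is not particular to *Gclc*. With any 1 library left out, the difference of *Gclc* was 0.58 to 0.75. The replicate block gave 1 changed gene, *Mt1*, in place of 0 for P+B against BI-9564 and for BI-9564 against PFI-3, and changed no other count of the 10 genes. Between the replicate series the count of 1 became 3 without a fold threshold (*Hmox1*, *Gsto1* and *Mt1*). Over all 10222 tested genes the count went from 135 to 385. None of the values that changed sign passed the test under any alternative. By median centring these were *Gclm* with P+B (-0.0570), *Gsto1* with BI-9564 (-0.000751), *Mt1* and *Mt2* between P+B and PFI-3 (-0.0158 and -0.00026) and *Nfe2l2* between P+B and BI-9564 (-0.0326). By quantile normalization they were *Nfe2l2* between P+B and BI-9564 (-0.00647) and between the replicate series (0.00967). With 1 library left out, differences from DMSO ran for *Hmox1* from -0.57 to 0.0828 with P+B, -0.0585 to 0.45 with PFI-3 and -0.35 to 0.16 with BI-9564, and for *Gsto1* from -0.71 to 0.32, -1.10 to 0.24 and -0.68 to 0.78. They ran for *Gclm* with P+B from -0.0650 to 0.14, for *Nqo1* from -0.21 to 0.0254 with PFI-3 and -0.17 to 0.00854 with BI-9564, and for *Mt1* and *Mt2* with BI-9564 from -0.30 to 0.0957 and -0.13 to 0.0674. Between P+B and PFI-3 the ranges were -0.10 to 0.16 for *Mt1* and -0.0260 to 0.12 for *Mt2*, against the sum of the single compounds -0.0657 to 0.33 and -0.0219 to 0.18, and for *Nfe2l2* -0.0130 to 0.0395 between P+B and BI-9564 and -0.0287 to 0.0129 between the replicate series. The causes of these shifts were not tested beyond what is stated. In the comparisons of 4 libraries with 4, added after seeing the data and not repeated without single libraries, 0 of the 10 genes were changed with or without the block. The depth is unknown, values are whole numbers, so steps of 1 TPM are coarse for *Gclc* and *Srxn1*, and 2 libraries a group leave wide intervals.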
